A study of Mus musculus with 12 samples.

Results

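Malignant lymphomas of Mutyh knockout mice were compared with malignant lymphomas of wild-type mice for the type, size and chromosome of their DNA copy number changes. The series profiled 12 mouse tumours by comparative genomic hybridisation, 1 array per tumour, and all 8 lymphomas among them are described here: 3 from knockouts and 5 from wild types. The 4 renal cell carcinomas were left out. Tumours were assigned by the genotype and tumour type in their labels, and each is named by genotype and animal number. All mice were C57BL/6. KO1077 and KO1111 came from knockouts given ferric nitrilotriacetate (Fe-NTA), a chelated form of iron that promotes oxidation of DNA, and KO1414 from an untreated knockout. WT1113, WT1114 and WT1121 came from wild types given Fe-NTA, and WT1405 and WT1420 from untreated wild types. The treated groups began with 20 male mice each and were injected 5 times a week for 12 weeks, at 3 mg of iron per kg during week 1 and 5 mg of iron per kg during the other 11 weeks. They were killed at about 120 weeks. The labels give no sex or age for the untreated mice, and they do not say how the knockout allele was made or whether the lymphomas were of B or T cells.

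Mutyh encodes a DNA glycosylase of base excision repair. It removes adenine that was paired with 8-oxoguanine, an oxidised guanine, and so prevents G-to-T changes after replication. Its absence is known for such single-base changes, and loss of the human gene predisposes to colorectal polyps and cancer. Mouse lymphomas commonly carry gains of whole chromosomes. B and T cells delete DNA when they join antigen receptor gene segments, so a clone of such cells also shows small losses at these loci against a reference from another tissue.

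Each array set tumour DNA (Cy5, red) against a common reference of normal C57BL/6 kidney DNA (Cy3, green). The log2 ratio of red over green is positive where the tumour held more DNA than the reference. Arrays were centred on the mode of their autosomal probes, the level at which most probes lay. Values came from 161460 autosomal probes with a median spacing of 10.8 kb, and at least 99.856% of spots on each array were well above background. The noise between neighbouring probes lay between 0.121 and 0.171 on the log2 scale. KO1077, KO1111, WT1113 and WT1114 shared a slide, and KO1414, WT1121, WT1405 and WT1420 shared another. The tumours were bulk tissue, so the copy number of a change and the share of cells that carried it cannot be told apart. Positions are in mm9. A stretch of 41 Mb on chromosome 4 around Mutyh, beginning at 96 Mb and read by 3291 probes, was left out of all counts and genotype comparisons except the check of Mutyh itself.

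The genotype labels were checked on Mutyh with the 2 probes of the array named for it. The sequences of the 6 probes below are shown because the results turn on them: of the 2 Mutyh probes the first separates the genotypes and the second does not, and the other 4 stand on either side of ends shared by WT1113 and WT1114. They are given as in the array files, with no base marked. Those files name the gene but not the strand, exon or intron.
Mutyh, probe low in knockouts, chr4:116490496-116490555: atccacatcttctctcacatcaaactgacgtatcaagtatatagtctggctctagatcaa
Mutyh, other probe, chr4:116480656-116480715: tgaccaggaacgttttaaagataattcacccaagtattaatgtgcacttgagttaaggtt
Doc2a, last probe inside the chromosome 7 gain, chr7:133995108-133995167: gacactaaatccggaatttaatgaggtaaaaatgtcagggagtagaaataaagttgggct
First probe past the chromosome 7 gain, chr7:134009108-134009167: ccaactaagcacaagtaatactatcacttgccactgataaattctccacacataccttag
Igh region (AK136471), last probe inside the loss, chr12:115252183-115252236: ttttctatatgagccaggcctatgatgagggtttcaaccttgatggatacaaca
Igh region (AK136471), first probe past the loss, chr12:115298666-115298715: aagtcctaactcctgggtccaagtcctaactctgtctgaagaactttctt

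The first Mutyh probe read -2.44 in KO1077, -2.39 in KO1111 and -2.56 in KO1414. It read 0.01 in WT1113, -0.06 in WT1114, -0.11 in WT1121, -0.08 in WT1405 and 0.14 in WT1420. The genotypes did not overlap, and no tumour went against its label. The means were -2.46 ± 0.09 (SD, n = 3) and -0.02 ± 0.10 (SD, n = 5), a difference of -2.44. Its exact permutation p was 0.0357, two-sided as in all permutation tests here, and this is the smallest value that 56 splits of 3 against 5 allow. The other Mutyh probe averaged 0.13 in both genotypes (exact permutation p = 1) and does not check the labels. The labels do not say which part of Mutyh is missing, so the first probe was taken as the checking probe from its low readings in knockouts of this series, and its p is not independent evidence.

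The knockout lymphomas carried few called changes, all of them gains on chromosome 11. A stretch was called when its mean lay at least 0.25 from 0 over at least 5 probes, and touching calls of 1 sign were joined into an event. Events at antigen receptor loci and at a small interval of chromosome 14 are described apart from the others. KO1077 had 0 other events. KO1111 had 2, a gain of 3.98 Mb at chr11:20612335-24595414 with a mean log2 ratio of 0.52 and a gain of 10.6 Mb at chr11:27956982-38580041 with a mean of 0.49. KO1414 had 1, a gain of 31.9 Mb at chr11:15233901-47179016 with a mean of 0.30.

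The wild-type lymphomas carried 13 events, 12 gains and 1 loss, on 9 chromosomes. WT1113 had 5 of them. Its gain on chromosome 7 reached from 58075000 to 133995167 (0.42), chromosome 15 was gained along its whole length (0.37), and 2 stretches of chromosome 1 were gained, at 84708285 to 90063942 (0.30) and 129051102 to 141490982 (0.28). Its other event, at chr4:137007289-155629081, was the only loss called outside the receptor loci and the left-out stretch in any of the 8 lymphomas. The value of this loss, -0.26, is the mean of a segment that begins inside the left-out stretch. WT1114 had 2 gains, at chr1:66162753-197188537 (0.35) and chr7:58050012-133995167 (0.34). WT1121 had 2 gains as well, at chr2:90585221-117183028 (0.33) and from chr3:91249522 to the end of the chromosome (0.33). WT1405 had gains of whole chromosomes 6 (0.52), 11 (0.27), 15 (0.29) and 17 (0.27). WT1420 had 0 events, as KO1077 did.

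**Figure D1:**
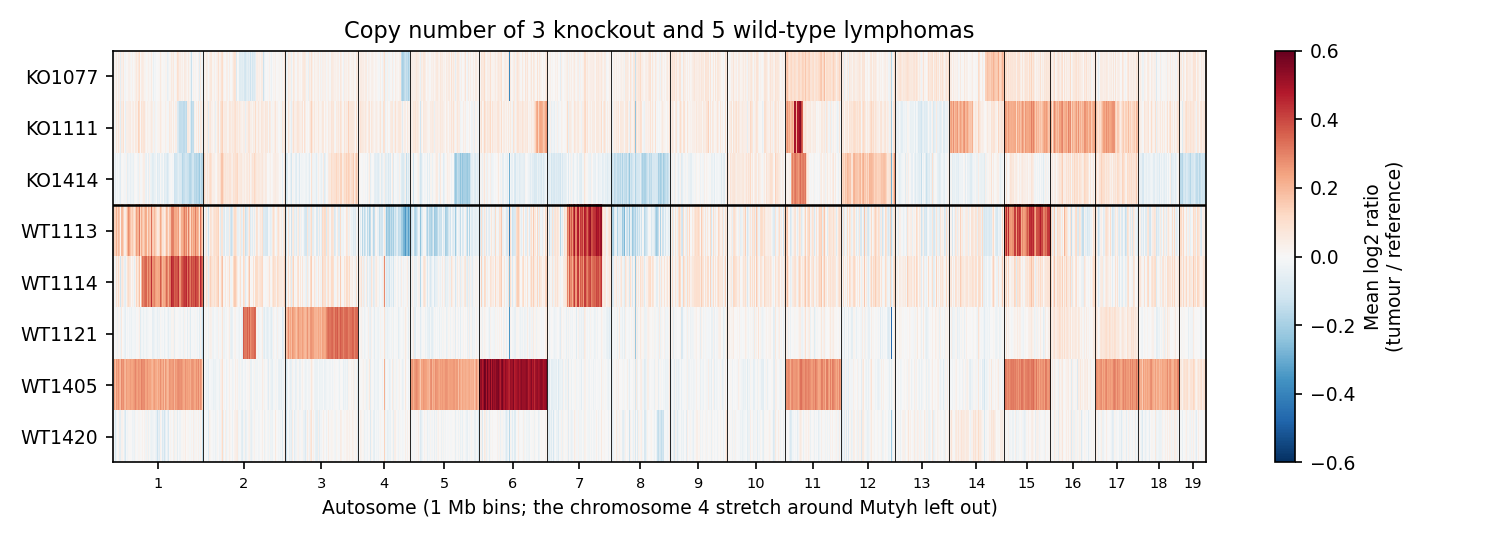
Mean log2 ratio (colour, red for more and blue for less tumour than reference DNA) in 1 Mb bins of the 19 autosomes (x axis, without the left-out stretch of chromosome 4) for each of the 8 lymphomas (rows; knockouts above the thick line). The strongest colour in the knockouts is the chromosome 11 gain of KO1111 (0.52 and 0.49), while WT1405 shows whole red chromosomes such as 6 (0.52) and WT1420 is nearly white throughout.

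Called stretches covered 0.223% of autosomal sequence in KO1077, 0.690% in KO1111 and 1.56% in KO1414, receptor loci included. In the wild types they covered 9.13% in WT1113, 8.88% in WT1114, 4.19% in WT1121, 19.4% in WT1405 and 0.0907% in WT1420. Thus 4 wild types lay above all knockouts, and WT1420 lay below them all. The mean was 0.823 ± 0.677% (SD, n = 3) in knockouts and 8.33 ± 7.20% (SD, n = 5) in wild types. The difference of -7.51 percentage points did not pass the test, at an exact permutation p of 0.143, or 0.429 after Benjamini-Hochberg adjustment over 6 measures of amount. Without WT1405 the difference was -4.75 points, and without WT1420 it was -9.57 points (exact permutation p = 0.0571, the lowest possible for 3 against 4).

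Most called sequence was gained in every lymphoma except KO1077 and WT1420. Gains covered 0.665 ± 0.676% in knockouts and 8.07 ± 7.23% in wild types, a difference of -7.40 points with an exact permutation p of 0.107 (adjusted 0.429). Losses, which outside WT1113 and the left-out stretch came from receptor loci alone, covered 0.158 ± 0.083% and 0.262 ± 0.374%, with an exact permutation p of 0.964 (adjusted 1). The direction of this last difference rested on WT1113, since without it the knockouts lay higher by 0.061 points.

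Knockouts had 1.0 ± 1.0 events per tumour (n = 3) and wild types 2.6 ± 1.95 (n = 5), with an exact permutation p of 0.357 (adjusted 0.536). The difference was -1.6 events over all tumours and -1.0 without WT1113. Broad events, those over 10 Mb, numbered 0.667 ± 0.577 and 2.4 ± 1.67 per tumour, with an exact permutation p of 0.214 (adjusted 0.429). Focal events of at most 10 Mb numbered 0.333 ± 0.577 and 0.2 ± 0.447, with an exact permutation p of 1. They were 1 event in KO1111 and 1 in WT1113, and without KO1111 the difference turned to -0.2. None of the 6 measures had an unadjusted p under 0.05. These tests measure the spread between tumours, each from a different animal number.

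Within the slide that held KO1077, KO1111, WT1113 and WT1114, called sequence covered 0.456 ± 0.330% in the 2 knockouts and 9.0 ± 0.17% in the 2 wild types. Within the other slide it covered 1.56% in KO1414 and 7.88 ± 10.2% in the 3 wild types, between which KO1414 lay. All tumours of the first slide came from treated mice, so treatment and slide were partly confounded. Among the 5 treated lymphomas alone, the difference was -6.94 points (exact permutation p = 0.2).

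**Figure D2:**
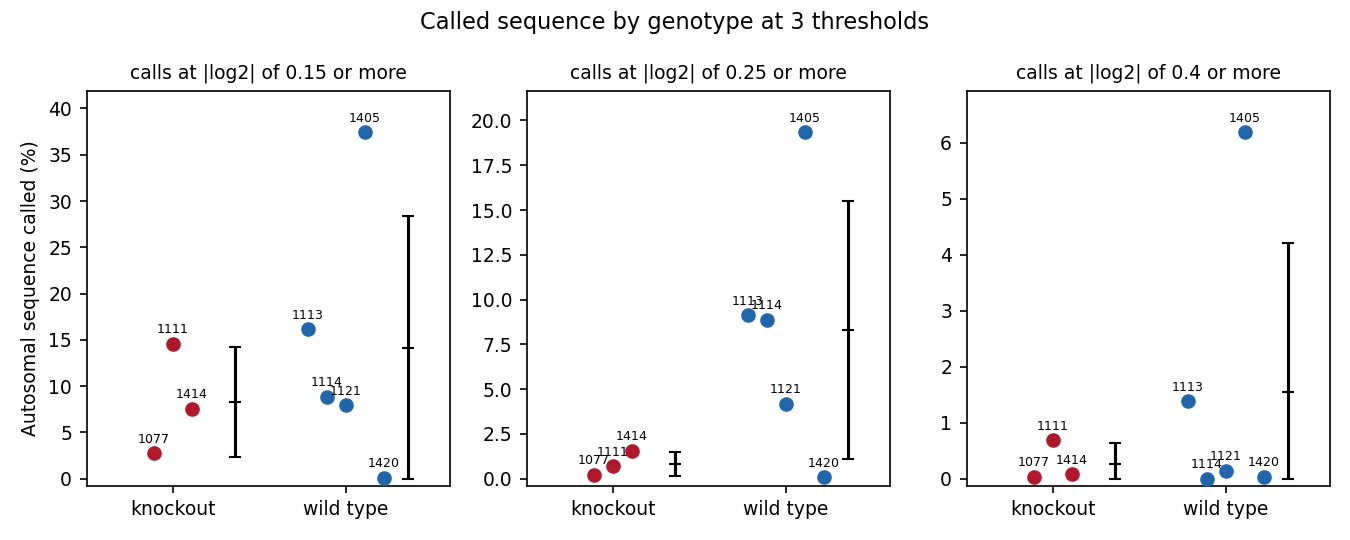
Percent of autosomal sequence in called stretches (y axis, linear, a separate scale in each panel) for each lymphoma (points, labelled by animal number), at call thresholds of 0.15, 0.25 and 0.4 on the log2 scale; the bar to the right of each genotype is its mean ± SD, with the lower arm stopped at 0. At 0.25 the 3 knockouts lie at 0.223% to 1.56% and 4 of 5 wild types at 4.19% to 19.4%, whereas at 0.15 the knockouts spread from 2.73% to 14.6%, inside the wild-type range.

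The contrast in amount depended on how deep a change had to be. At a threshold of 0.15, called sequence covered 2.73% in KO1077, 14.6% in KO1111 and 7.55% in KO1414. It was 16.2% in WT1113, 8.88% in WT1114, 7.92% in WT1121, 37.4% in WT1405 and 0.0907% in WT1420. The means were then 8.28 ± 5.95% and 14.1 ± 14.2%, with an exact permutation p of 0.643 (adjusted 1). Knockouts had more events than wild types at this threshold, 4.33 ± 2.52 against 3.8 ± 3.49, with an exact permutation p of 0.893. At 0.4, 0.266 ± 0.367% and 1.55 ± 2.66% of sequence was called, with an exact permutation p of 0.536.

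The changes that entered between 0.15 and 0.25 showed knockout chromosomes other than 11. KO1111 carried shallow gains of whole chromosomes 15 (0.22) and 16 (0.22), of chr6:123062507-149512014 (0.21), chr14:8526343-54126739 (0.21) and chr17:17630015-45563003 (0.25), and a loss at chr1:171472183-179054975 (-0.15). KO1414 carried a gain of most of chromosome 12 (0.16), a gain of 2.23 Mb on chromosome 3 (0.19) and a loss at chr5:99208076-134347680 (-0.20). KO1077 carried a gain at chr14:84456572-125164256 (0.16) and a loss of distal chromosome 4 (-0.17). At this threshold the knockouts held 13 events, 10 gains and 3 losses, on 11 chromosomes, and the wild types held 19, 16 gains and 3 losses, on 13. Wild-type values also lay close to the line of 0.25: chromosomes 1 (0.25), 5 (0.23) and 18 (0.23) of WT1405 lay just under it and its chromosomes 11 and 17 (both 0.27) just over.

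Centring mattered for WT1405 in particular. Its median lay 0.076 above its mode, against at most 0.045 in the other 7 lymphomas. Centred on the median, its called sequence dropped to 6.19%, chromosome 6 alone, and that of WT1114 to 7.37%, while the knockouts were unchanged. The genotype difference was then -4.57 points (exact permutation p = 0.143).

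Knockout events lay at the short end of the wild-type range. The 3 knockout events measured 3.98, 10.6 and 31.9 Mb. The 13 wild-type events measured 5.36 to 146.4 Mb with a median of 75.9 Mb, and 5 of them spanned a whole chromosome, 1 in WT1113 and 4 in WT1405. No knockout event at 0.25 spanned a chromosome. The largest event of each tumour was 0 Mb in KO1077, 10.6 Mb in KO1111 and 31.9 Mb in KO1414. It was 100.3 Mb in WT1113, 131.0 Mb in WT1114, 68.3 Mb in WT1121, 146.4 Mb in WT1405 and 0 Mb in WT1420. The means were 14.2 ± 16.3 Mb (n = 3) and 89.2 ± 58.2 Mb (n = 5). This measure was chosen after the events had been seen, and its difference of -75.0 Mb had an exact permutation p of 0.143. At the threshold of 0.15, the largest knockout event was chromosome 15 of KO1111 at 100.3 Mb, and 2 of 13 knockout events and 9 of 19 wild-type events spanned a chromosome.

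**Figure D3:**
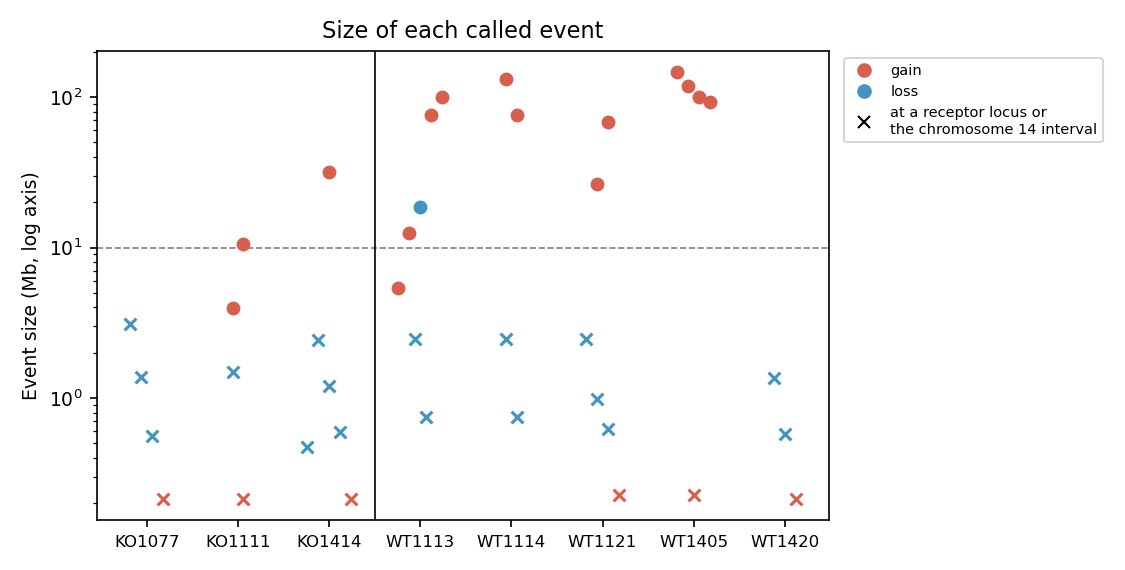
Size of each event called at 0.25 (y axis, Mb on a log axis) in each lymphoma (x axis); circles are events outside the receptor loci, crosses are receptor loci or the chromosome 14 interval, red is gain, blue is loss, and the dashed line at 10 Mb divides focal from broad. The 3 knockout circles lie at 3.98 to 31.9 Mb and 9 of 13 wild-type circles above 50 Mb. All crosses lie under the dashed line by definition, because only events of at most 10 Mb were assigned to these places.

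By chromosome, an event on chromosome 11 was called in 2 of 3 knockouts and 1 of 5 wild types. Events on chromosomes 1, 7 and 15 were each called in 0 of 3 knockouts and 2 of 5 wild types, and those on chromosomes 2, 3, 4, 6 and 17 in 1 wild type each. The mean log2 ratio of each autosome was tested between genotypes, and 0 of 19 passed (0% of those tested). Every adjusted exact permutation p was 0.964, and 0 had an unadjusted p under 0.05. The smallest possible p was 0.0357, so no autosome could pass the adjustment unless most of the 19 reached that value together. A difference on few chromosomes could therefore not have passed. The lowest unadjusted p was 0.107, for chromosome 12. It averaged 0.03 in KO1077, 0.05 in KO1111 and 0.14 in KO1414, against -0.02 to 0.06 in the wild types. Chromosome 1 had the largest difference, at -0.01 ± 0.04 in knockouts and 0.14 ± 0.13 in wild types (exact permutation p = 0.214). Its mean was 0.20 in WT1113, 0.26 in WT1114 and 0.24 in WT1405 but -0.01 in WT1121 and WT1420, so the wild types fell into separate groups and the knockouts lay with the lower.

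The proximal gain of chromosome 11 was the only event, outside the receptor loci, the chromosome 14 interval and the left-out stretch, that 2 knockouts shared. In KO1111 it had 2 steps of 0.52 and 0.49, with 0.21 in the 3.30 Mb between them and 0.22 from the start of the chromosome to the first step, and 0.03 from 38608271 onward. In KO1414 it was a single step of 0.30, between 0.04 before and 0.01 after. KO1077 read 0.11 over the whole chromosome, under the threshold. Over the 31.9 Mb of the KO1414 gain, the 8 lymphomas read 0.12 in KO1077, 0.33 in KO1111, 0.30 in KO1414, 0.05 in WT1113, 0.09 in WT1114, 0.02 in WT1121, 0.29 in WT1405 and 0.01 in WT1420. WT1405 thus lay level with KO1414 there, but its gain spanned the whole chromosome at 0.27.

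The first, shorter step of KO1111 held Xpo1, which encodes a nuclear export receptor, Rel, which encodes an NF-kB subunit of lymphocytes, and Bcl11a, which encodes a lymphoid transcription factor. All 3 also lay in the gain of KO1414. Xpo1 read 0.10, 0.47 and 0.30 in KO1077, KO1111 and KO1414, and 0.08, 0.09, 0.06, 0.31 and -0.04 in WT1113, WT1114, WT1121, WT1405 and WT1420. In the same order, Rel read -0.01, 0.35 and 0.37 in knockouts and -0.01, -0.01, 0.04, 0.29 and 0.09 in wild types, and Bcl11a read 0.18, 0.69 and 0.27 against 0.12, 0.20, 0.04, 0.41 and 0.05. For each of them KO1111, KO1414 and WT1405 were the 3 highest tumours. These are the tumours with a called gain there, and the genes were named for lying in such gains, so this order is not independent evidence. Ebf1, which encodes a B cell transcription factor, lay in the gain of KO1414 (0.33) but past the gains of KO1111 (0.09).

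**Figure D4:**
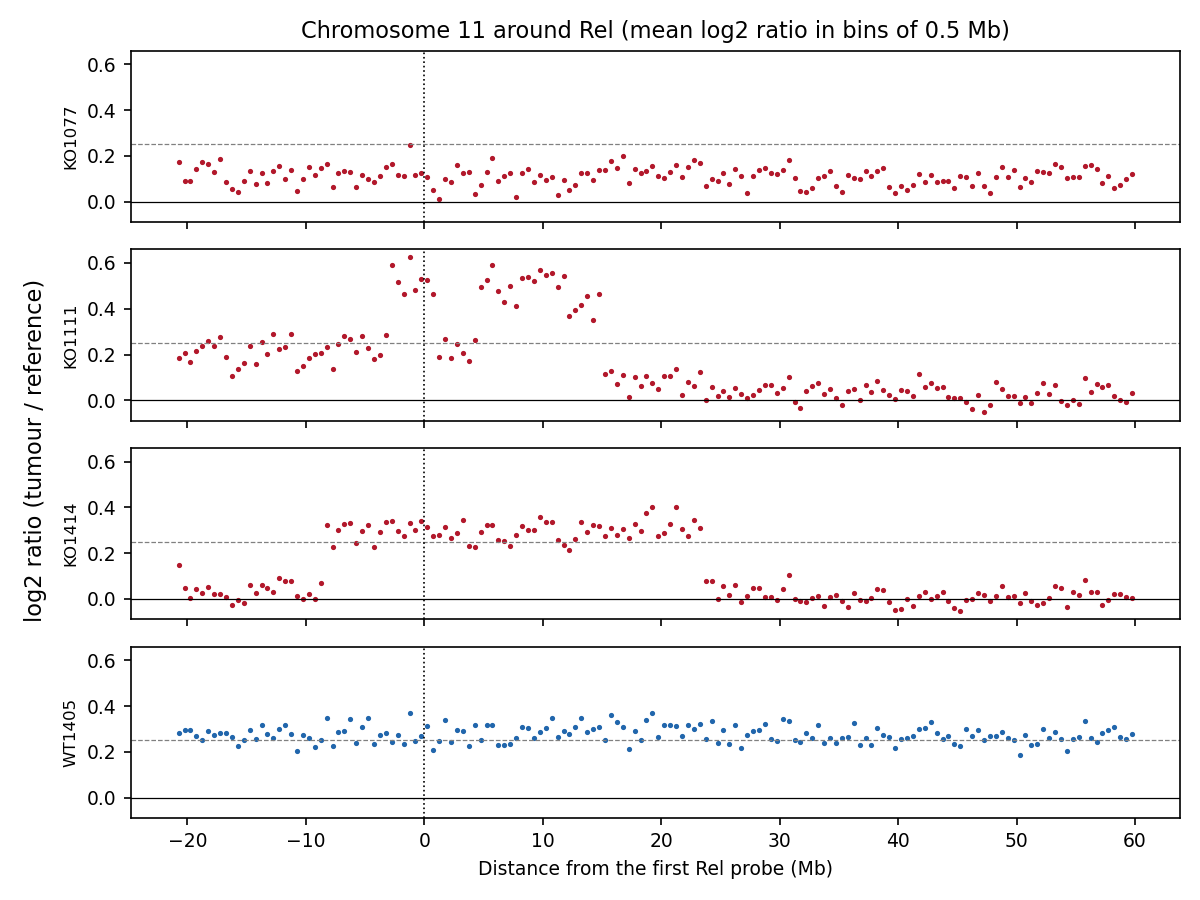
Mean log2 ratio (y axis) in bins of 0.5 Mb along chromosome 11, by distance from the first Rel probe (x axis, Mb; dotted line), in the 3 knockouts and WT1405; the dashed line is the call threshold of 0.25. KO1111 shows 2 steps near 0.5 with 0.21 between them, KO1414 a single step of 0.30, KO1077 a flat 0.11 and WT1405 a flat 0.27.

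WT1113 and WT1114 had the most similar copy number profiles of any pair. Over 2356 bins of 1 Mb, their log2 ratios correlated with r = 0.753, while the other 27 pairs of lymphomas lay between -0.124 and 0.451, and the 5 other pairs on their slide between 0.023 and 0.348. Bins share chromosomes and arrays, so this is a description. The pair did not lead in a second measure, the correlation of the deviations of single probes from their segments, which followed the slide. There it stood at 0.804, below KO1111 with WT1114 at 0.847, KO1077 with KO1111 at 0.829 and KO1077 with WT1114 at 0.821. The other pairs within a slide lay between 0.548 and 0.847 and pairs across slides between 0.252 and 0.479. The chromosome 7 gains of WT1113 and WT1114 ended at the same probe and began 25.0 kb, or 2 probes, apart. The last probe inside that gain, the Doc2a probe printed above, read 0.67 in WT1113, 0.53 in WT1114 and 0.04 to 0.11 in the other 6 lymphomas. The first probe past it read 0.20 and 0.15. Their losses at Igh also ended at the same probe, chr12:115252183-115252236. It read -0.25 in WT1113 and -0.20 in WT1114, and the next probe read 0.08 and -0.04. Other lymphomas were as low at the last probe, at -0.20 in KO1077, -0.25 in KO1111, -0.66 in KO1414 and -0.31 in WT1121. Ends at receptor loci were shared widely: this pair shared 4 within 50 kb, KO1414 and WT1121 shared 5, and WT1113 and WT1121 ended their Igk losses at the same probes on both sides.

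Outside the receptor loci, ends were counted without those at chromosome ends or at the left-out stretch. The chromosome 14 interval, whose called gains all ended at 70090608, was not counted either. By this count none of the other 27 pairs shared an end within 50 kb. KO1077, WT1405 and WT1420 had 0 such ends, so no pair that includes any of them could have shared an end. Other changes were private to WT1113 or WT1114. Chromosome 15 read 0.37 in WT1113 and 0.07 in WT1114, the distal loss of chromosome 4 read -0.27 and -0.00 over the same stretch, and the WT1114 gain of chromosome 1 read 0.21 and 0.35. Whether the tumours arose from related cells, or shared DNA, was not tested.

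**Figure D5:**
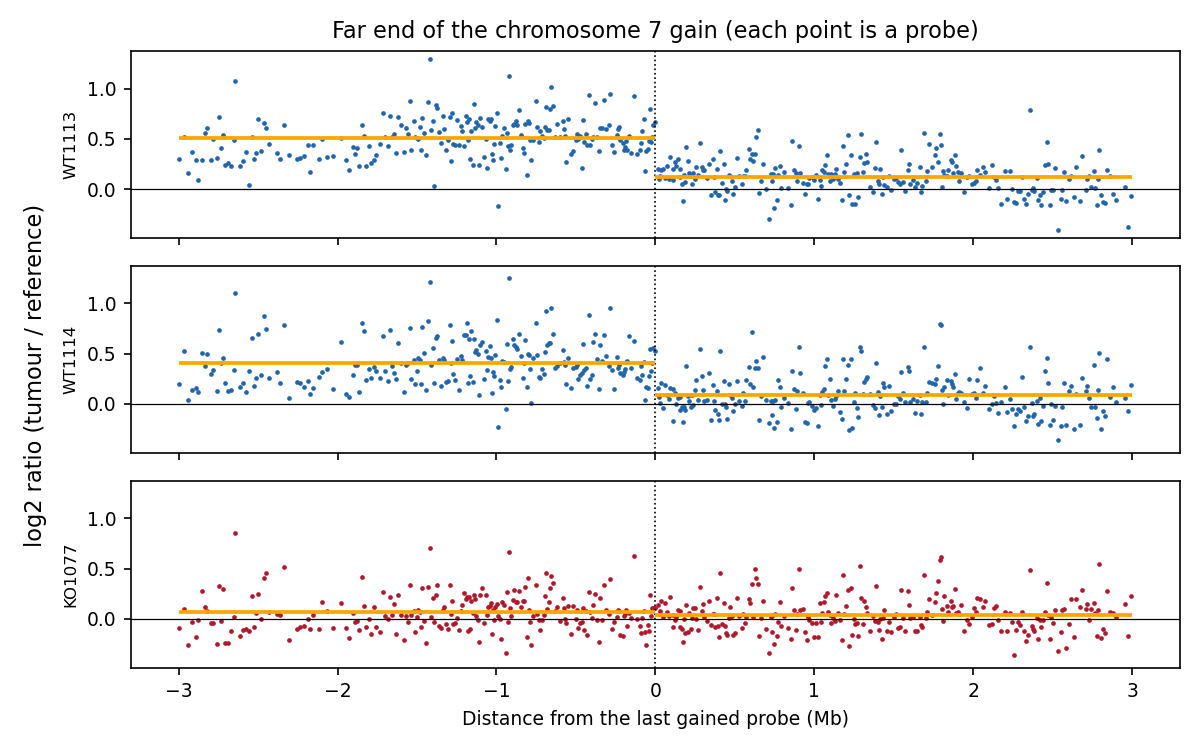
Log2 ratio of each probe (y axis) within 3 Mb of the last probe of the chromosome 7 gain (x axis, distance in Mb) in WT1113, WT1114 and KO1077; orange lines are the means of each side. WT1113 steps from 0.51 to 0.12 and WT1114 from 0.41 to 0.09 at the same probe, while KO1077 stays at 0.06 and 0.04.

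With WT1113 and WT1114 counted as 1 tumour, at the mean of their values, the wild types numbered 4 and the smallest possible two-sided p was 0.0571. Called sequence then covered 8.16 ± 8.30% in wild types, a difference of -7.34 points (exact permutation p = 0.229, adjusted 0.571). Gained sequence differed by -7.30 points (p = 0.171 by exact permutation), events by -1.38 per tumour (p = 0.4 by exact permutation) and broad events by -1.58 (p = 0.286 by exact permutation). The largest event differed by -68.4 Mb, with an exact permutation p of 0.229. Chromosome 7 was then gained in 1 of 4 wild types, chromosome 1 in 1 of 4 and chromosome 15 in 2 of 4. Of 19 chromosome means 0 passed, as none could at that smallest possible p, with every adjusted exact permutation p at 0.971.

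Antigen receptor loci showed lymphoid DNA in both genotypes. Losses at Igh, the immunoglobulin heavy chain locus, were called in 3 of 3 knockouts and 4 of 5 wild types. Losses at Igk, the kappa light chain locus, were called in 2 of 3 and 3 of 5, at Tcra/Tcrd in 2 of 3 and 2 of 5, and at Tcrb in 1 of 3 and 0 of 5. Igl and Tcrg had none. Relative to the median of chromosome 12, the whole Igh locus averaged -0.19 in KO1077, -0.30 in KO1111 and -0.44 in KO1414. It averaged -0.15 in WT1113, -0.13 in WT1114, -0.34 in WT1121, -0.04 in WT1405 and -0.21 in WT1420. The ranges overlapped, and the means of -0.31 ± 0.12 and -0.17 ± 0.11 had an exact permutation p of 0.179 (adjusted 0.571). Of the 6 loci 0 passed (0% of those tested), and 0 had an unadjusted exact permutation p under 0.05. Here too a locus could pass the adjustment only if most of the 6 reached the smallest possible p together. WT1405, the tumour with the most called sequence, was the only lymphoma with no receptor loss called. Its locus means lay between -0.07 and 0.01, nearest to 0 of all 8 tumours at Igh and Tcrb.

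A short gain on chromosome 14 at chr14:69863952-70090608, read by 24 probes over Slc25a37, Entpd4 and Loxl2, separated tumours across the genotypes. Slc25a37 encodes a mitochondrial iron importer. The interval averaged 0.88 in KO1077, 0.91 in KO1111 and 0.83 in KO1414. It averaged 0.85 in WT1121, 0.92 in WT1405 and 0.69 in WT1420, but 0.06 in WT1113 and 0.08 in WT1114. It was therefore high in all knockouts and 3 of 5 wild types, and WT1113 and WT1114 stood together here too.

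At the level of single genes, limma was fitted to 20288 autosomal genes over the 8 lymphomas with genotype and treatment as terms. Outside the left-out stretch 0 of 19717 genes passed at an adjusted p under 0.05 (0% of those tested), and 866 had an unadjusted p under 0.05. That unadjusted count was 399 without KO1111, 1771 without WT1121 and 1763 with slide as a fixed block in place of treatment. In each, 0 genes passed limma's adjusted p. Within the stretch 12 genes passed, or 0.0591% of all genes tested. An interaction of genotype and treatment could not be judged, because KO1414 was the only untreated knockout.

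The 5 genes of at least 2 probes with the smallest p did not pass. Of these, 4 lay on chromosome 1 and had lower means in knockouts. WT1113, WT1114 and WT1405 read 0.22, 0.38 and 0.25 over the chromosome 1 segments that hold them. KO1414 read -0.14 and KO1077 read 0.02 over theirs. KO1111 read -0.15 over the segments that hold Lamc1, Vangl2 and Cd244, and 0.04 over the segment of BC030469. The part of these segment levels in the gene values was not tested. Vangl2, which encodes a planar cell polarity protein, averaged -0.23 in knockouts and 0.19 in wild types, with a coefficient of -0.41 ± 0.08 (SE, limma adjusted p = 0.388). Vangl2 read -0.30, -0.26 and -0.12 in KO1077, KO1111 and KO1414. The wild types read 0.19, 0.31, 0.02, 0.30 and 0.15 in WT1113, WT1114, WT1121, WT1405 and WT1420. The gene was named for its small p, so the gap between genotypes is not independent evidence. Cd244, which encodes a receptor of natural killer cells, averaged 0.05 and 0.54, and KO1414 lay lowest at -0.32. Lamc1, which encodes a laminin chain, averaged -0.13 and 0.22 over 11 probes, and BC030469 averaged -0.23 and 0.03. Hspa13 on chromosome 16, the remaining gene, encodes a chaperone of the Hsp70 family and averaged 0.23 in knockouts and -0.03 in wild types. Its limma adjusted p was 0.976.

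Of 26 genes listed for base excision repair, 22 were named on the array and 21 lay outside the left-out stretch. Of these 0 passed, and 2 of the 21 had an unadjusted limma p under 0.05, against 866 of all 19717 genes outside the stretch. The median coefficient was -0.03, against -0.03 over all genes. Among the 21 listed genes only Mpg, which encodes the glycosylase for alkylated purines, lay in a knockout event. Its single probe read 0.57 in KO1111 and 0.49 in KO1414, 0.23 in KO1077, 0.40 in WT1405 and 0.09 to 0.22 in the other 4 wild types. Knockout events held 1 of the 21 genes (4.76%) against 0.948% of all genes outside the stretch, and wild-type events held 8 (38.1%) against 36% of all genes. The wild-type genes included Ogg1, which encodes the glycosylase for 8-oxoguanine and read 0.70 in WT1405, and Parp1, the strand break sensor, which read 0.34 in WT1114. Ogg1 has a single probe. It also read 0.47 in WT1114 and 0.42 in WT1113, where no gain of chromosome 6 was called, and 0.02 to 0.33 in the remaining lymphomas.

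Of 62 listed lymphoma genes, 53 were named on the array and 52 lay outside the left-out stretch. Of these 0 passed, and 1 of the 52 had an unadjusted limma p under 0.05, against 866 of all 19717 genes outside the stretch. The median coefficient was -0.04. Knockout events held 4 of the 52 (7.69%, against 0.948% of all genes), the chromosome 11 genes above, which all lie in the gain of KO1414. The 4 thus come from 1 stretch, and the list was chosen with earlier results of these data known, so their share is only a description. Wild-type events held 22 (42.3%, against 36% of all genes), among them the anti-apoptotic gene Bcl2 (0.44 in WT1114), the p53 inhibitor gene Mdm4 (0.42 in WT1114 and 0.29 in WT1113), Ep300, which encodes a histone acetyltransferase (0.52 in WT1113), and, in WT1405, the histone methyltransferase gene Ezh2 (0.57) and the D-type cyclin gene Ccnd2 (0.67).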

How the data were processed

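DNA copy number was measured in 8 lymphomas on 2-colour Agilent 180K mouse CGH arrays. Intensity values, per the file headers, are the authors' deposited processed red and green signals of Agilent Feature Extraction 10.7.1.1, background-subtracted and dye-normalized, with probe positions in mm9. The submitters' processing notes name Agilent Feature Extraction 10.7. The deposited series table holds log2 ratios, which correlated with the scanner values at r of at least 0.99994. Of its columns, 4 belong to carcinomas and were not used.

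The log2 of red over green was taken for autosomal probes without outlier flags, spots of a probe were averaged, and each array was centred on its autosomal mode (Gaussian kernel of 0.05). Penalised least squares divided chromosomes into segments with a penalty factor of 10, and calls needed a mean of 0.25 over 5 probes. Probes were averaged per gene, without 1420 probes whose gene name occurs on several chromosomes. Tests were two-sided exact permutation tests (Python 3.11.15, numpy 2.4.6) and lmFit with eBayes of limma 3.58.1 in R 4.3.3, with Benjamini-Hochberg adjustment. Segmentation and limma were tested on simulated data. Named genes were Mutyh, genes that passed or else the 5 with the smallest p among those with at least 2 probes, and listed genes inside events, with Kmt2d and Spi1 found under the older names Mll2 and Sfpi1. Members and lists were chosen with earlier results of these data known. The alternatives changed centring, thresholds, segmentation, background correction, slide, treatment and the tumours included. The number of arrays limits the precision.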

Additional observations from a re-analysis of the deposited data

Results flagged for a closer look

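Values were examined for a tumour far from the others of its genotype, meaning that its gap to the nearest of the others exceeded 0.71 of the whole range. This was possible for the 5 wild types, not for the 3 knockouts. It picked out 9 of 33 sets of values. A chance rate of about 1 in 20 would apply to independent sets. These sets overlap, share tumours and include counts, so 9 of 33 cannot be compared with that rate. WT1405 stood apart for the means of chromosome 5 (0.233), chromosome 6 (0.516), chromosome 17 (0.267) and chromosome 18 (0.231), where the other wild types lay between -0.082 and 0.067. WT1113 stood apart for percent lost, 0.922% against at most 0.171%, for its 1 focal event against 0 in the others, and for the mean of chromosome 4 outside the left-out stretch, -0.128 against -0.012 to -0.004. WT1121 stood apart for chromosome 3, with a mean of 0.273 against -0.014 to 0.046. WT1114 stood apart for chromosome 13, with a mean of 0.047 against -0.001 to 0.008. This level was not particular to chromosome 13. WT1114 also read 0.063 on chromosome 2, 0.063 on chromosome 9 and 0.052 on chromosome 10, though -0.004 on chromosome 4 and 0.002 on chromosome 5. Its median lay 0.045 above its mode.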

How the results depend on the processing

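Differences below are knockout minus wild type. Percent called and percent gained kept their direction under all 28 alternatives each, at -11.4 to -1.28 points and -11.4 to -1.28 points, and their adjusted exact permutation p stayed between 0.114 and 1. Percent lost turned to 0.556 points at a threshold of 0.15, 0.703 at 0.15 with WT1113 and WT1114 as 1 tumour, 0.40 at 0.2, 0.061 at 0.3 and 0.114 within the slide of KO1414. The number of events turned to 0.533 at 0.15, 0.833 at 0.15 with the pair as 1 tumour, 0.267 at 0.4 and 0.733 with the left-out stretch of chromosome 4 kept. Broad events turned to 0.267 at 0.15 and 0.417 there with the pair as 1 tumour. Focal events turned to -0.533 with a segmentation penalty factor of 5, -0.067 with normexp background, -0.2 with calls joined over 5 Mb and -0.2 at 0.2. The causes were not tested. Thresholds of 0.2 and 0.3 and the joint settings with WT1113 and WT1114 as 1 tumour were added after the data had been seen.

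Leaving out each tumour in turn gave -9.57 to -4.75 points called, -9.42 to -4.58 gained (lowest in size without WT1405), -0.169 to 0.061 lost, -2.25 to -1.0 events, -2.33 to -1.33 broad events and -0.2 to 0.333 focal events. The Mutyh probe differed by -2.48 to -2.39 with a tumour left out and by -2.44 with the pair as 1 tumour, designs of fewer splits whose smallest exact permutation p exceeds 0.05. Genes outside the stretch passed limma in 2 of 21 alternatives. After subtraction of chromosome means 2 genes passed, AK044741 and Casq1, both lower in knockouts and read by 1 probe on chromosome 1. Among treated lymphomas 1 passed, 4921507P07Rik on chromosome 6, also read by 1 probe. For chromosome means and receptor loci, 9 of the 11 alternatives leave too few splits for any p under 0.05, so their 0 calls say nothing about stability. No paired analysis was possible because the labels give the genotypes no shared replicate numbers. The exact permutation test of 3 against 5 cannot give a p under 0.0357. After adjustment, an amount measure, autosome or receptor locus could therefore pass only if most of its family reached that value together.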

Other observations

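Distal chromosome 4, past the left-out stretch, read below the rest of the genome in 1 tumour of each genotype. KO1077 carried a segment of 21.9 Mb from 133720794 to the end at -0.17, under the call threshold. WT1113 carried a segment of 19.9 Mb from 135701629 to the end at -0.26. The other 6 lymphomas read -0.08 to 0.01 over chr4:137007289-155629081. KO1077 and WT1113 shared a slide and treatment.

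Distal chromosome 1 read low in 2 knockouts and high in 3 wild types. KO1414 read -0.14 from 137074720 to the end. KO1111 read -0.15 at 142090104 to 164728952 and again at 171472183 to 179054975, with 0.04 between and after, and KO1077 read 0.02 over the whole chromosome. WT1113 read 0.22 from 141507873 to the end, WT1114 read 0.38 from 125805911 and WT1405 read 0.25 from 5891411, while WT1121 and WT1420 lay between -0.01 and 0.01. The pattern was noticed after the data had been seen and was not tested as a region.

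The single-probe gene 4921507P07Rik at chr6:50546172-50546231 read -0.14 in KO1077 and -0.12 in KO1111 but 0.70 in KO1414, and 0.51 to 0.84 in the wild types. The low pair came from treated knockouts on the same slide, while WT1113 and WT1114 of that slide read 0.53 and 0.62.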
